A study of Mus musculus with 18 samples.

Results

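Livers sampled 4 h after partial hepatectomy were compared gene by gene with livers sampled 48 h after it, using 4 of the 18 RNA-seq libraries of a mouse liver regeneration series. The libraries were taken by their labelled time, 2 at 4 h and 2 at 48 h, and every gene counted in them entered, 17180 genes in all. Each library was made from liver RNA of C57BL/6 mice, 3 RNA samples of a time being pooled, and both times followed a 2/3 partial hepatectomy. The labels record no difference between the groups other than the time since the operation, and they name no altered allele and no compound. The sources used here give no sex, age or clock hour of sampling. The remaining 14 libraries are a sham operation and 0.5, 2, 24, 72, 120 and 168 h after hepatectomy, with 2 pools each, and they serve below to estimate the spread between pools and to place the levels at 4 h and 48 h in the course.

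After partial hepatectomy the remaining hepatocytes, most of which were resting, re-enter the cell cycle. In the first hours, called priming, cytokines such as tumour necrosis factor and interleukin-6 act on hepatocytes through NF-kB and STAT3, immediate early genes are transcribed and acute phase proteins are made in large amounts. Growth factors such as hepatocyte growth factor and ligands of the epidermal growth factor receptor then carry the cells through the restriction point by way of cyclin D, and in the mouse DNA synthesis and mitosis follow on the second day, while the liver goes on serving the body's metabolism.

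The 4 libraries held 8.08 M and 7.81 M (M, mega) counted reads at 4 h and 8.80 M and 9.06 M at 48 h, within the range of 7.78 M to 9.16 M over the series. Levels are given as CPM, the counts of a gene per M counts of its library, after scaling by the trimmed mean of M-values (TMM), a factor that sets the bulk of genes equal between libraries. The scaling factors were 0.776 and 0.821 at 4 h and 1.18 and 1.12 at 48 h, and 0.776 and 1.18 were the lowest and the highest of the 16 complete libraries. Reads were less evenly spread at 4 h, where the 10 most abundant genes took 27.0% and 26.0% of reads, against 20.5% and 22.2% at 48 h. A defining product of hepatocytes, albumin, took 7.97% and 9.18% of reads at 4 h and 10.05% and 10.03% at 48 h. Of the libraries outside this comparison, 2 have tables that stop before the low counts and were left out of the fit, so that the sham and 0.5 h levels below rest on 1 pool each. The labels do not say that the pools of a time came from different animals, so that p-values measure only the spread between these samples, which may be technical.

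Of 12199 genes with enough reads to test, 2390 (19.6%) were higher at 48 h and 2378 (19.5%) were lower at an adjusted p under 0.05 (edgeR quasi-likelihood test, Benjamini-Hochberg adjustment over all genes tested). Counts of list members called below are to be read against these shares. The median log2 fold change over all genes tested was -0.01, that of the genes called higher was 1.06 and that of the genes called lower was -1.05. The change was at least 2-fold in 1287 genes called higher and 1271 called lower, and at least 8-fold in 218 and 72. In 72.8% of the genes tested the 2 pools of one time lay wholly above the 2 pools of the other, called or not. Among genes called this held for 2389 of the 2390 higher and 2375 of the 2378 lower. Pools that lie apart in a called gene are therefore a description and add nothing to the call. Fold changes are relative to the median gene, and with library totals in place of TMM factors the median log2 fold change was 0.52, and 5292 genes were called higher and 806 lower. None of the genes called lower with TMM was called higher with library totals. Without the first 48 h pool the counts were 1453 higher and 1398 lower, and without the second 4 h pool 1595 and 1454.

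**Figure D1:**
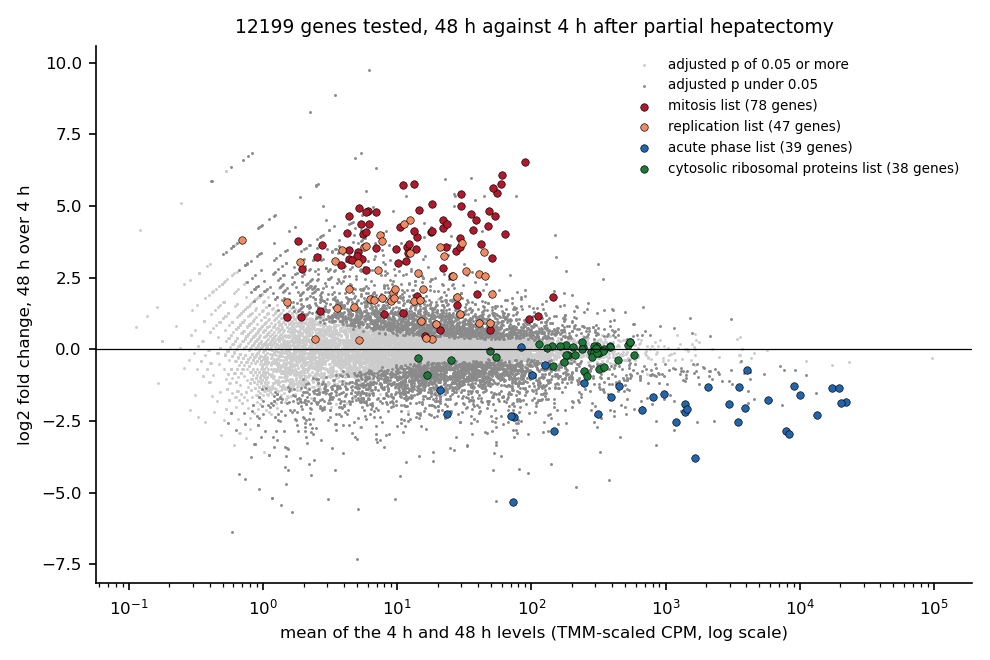
Each point is 1 of the 12199 genes tested, placed by the mean of its 4 h and 48 h levels in TMM-scaled CPM (log axis, not divided by gene length) and by its log2 fold change, 48 h over 4 h. The mitosis and replication lists lie above 0 at low to middle levels, most of the acute phase list lies below 0 at the highest levels, and the ribosomal protein genes lie close to 0.

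The place of these genes in the course is a description, because the times were picked knowing that many genes peak or dip there. Of the genes called higher, in 1261 48 h had the highest mean of the 9 groups, in 1560 4 h had the lowest, in 610 both held and in 179 neither. For the genes called lower, 4 h had the highest mean in 1680, 48 h had the lowest in 924, both held in 490 and neither in 264. Over all 12199 genes tested, called or not, 48 h had the highest mean in 2024 and the lowest in 1792. For 4 h it was the highest in 2795 and the lowest in 2683. Peak counts of gene lists below are to be read against these. A fold change between 4 h and 48 h thus describes a rise to 48 h for some genes and a return from a dip at 4 h for others, and the levels in other groups are given where they tell these apart.

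**Figure D2:**
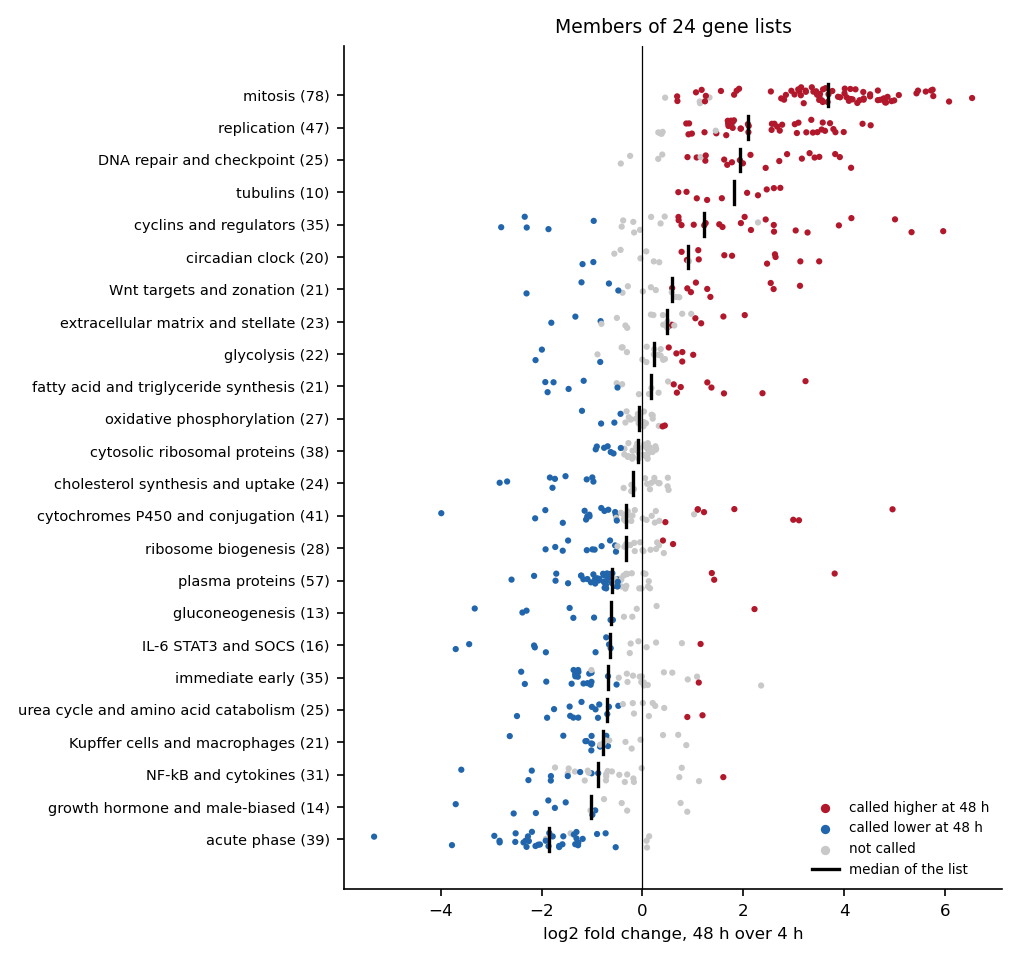
Each point is a tested member of 1 of 24 gene lists, placed by its log2 fold change, 48 h over 4 h, and coloured where it was called higher (red) or lower (blue); black bars are list medians and numbers in brackets are genes tested. Medians run from 3.68 for mitosis to -1.85 for the acute phase; with library totals the median of all genes is 0.52, and the medians of ribosome biogenesis and ribosomal proteins turn to 0.20 and 0.44.

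Genes of mitosis had the highest median of the gene lists. Of the 78 tested genes on the mitosis list, 74 were higher at 48 h and none was lower, with a median log2 fold change of 3.68, and in 74 of the 78 the 48 h mean was the highest of the course. The largest rise on the list belonged to Cdc20, the activator that directs the anaphase-promoting complex to its targets at the start of anaphase. Its level was 1.6 and 2.18 CPM in the 4 h pools and 179 and 175 CPM in the 48 h pools (log2 fold change 6.54 ± 0.68, adjusted p = 1.98e-05). Both 48 h pools were far above both 4 h pools and differed little from each other. Ube2c, the ubiquitin-conjugating enzyme of the same complex, stood at 2.39 and 1.87 CPM and then 110.4 and 123 CPM (log2 fold change 5.77 ± 0.53, adjusted p = 9.8e-06), though 22.8% of its exon bases overlap Tnnc2 on the opposite strand and the libraries are not stated to keep strand.

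All 14 mitotic kinases and phosphatases on the list rose. Cdk1, the kinase that drives entry into mitosis, was at 2.07 and 4.37 CPM at 4 h and 71.4 and 76.7 CPM at 48 h (log2 fold change 4.51 ± 0.39, adjusted p = 8.86e-06). Plk1, which acts in spindle assembly and mitotic exit, was at 1.6 and 3.28 CPM and 101 and 116 CPM (log2 fold change 5.46 ± 0.50, adjusted p = 9.8e-06). The chromosomal passenger complex, which corrects faulty attachment of chromosomes to the spindle, was represented by its kinase Aurkb, by survivin (Birc5) and by Incenp. Aurkb had 0.319 and 0.624 CPM at 4 h and 25.9 and 26.7 CPM at 48 h, and Birc5 had 1.44 and 1.25 CPM and 60.7 and 56.4 CPM. Incenp was at 3.67 and 3.74 CPM and 52.1 and 57.3 CPM. Their log2 fold changes were 5.75 ± 0.55, 5.43 ± 0.55 and 3.88 ± 0.31 (SE), with adjusted p-values of 1.18e-05, 1.66e-05 and 6.2e-06. In each of these genes the 2 times did not overlap.

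Among spindle motors and microtubule binders, 21 of 23 rose. Kif11, the motor that pushes the spindle poles apart, was at 1.28 and 2.34 CPM at 4 h and 17.8 and 25.8 CPM at 48 h (log2 fold change 3.58 ± 0.51, adjusted p = 0.000175). Kif18b, a motor at microtubule ends, was at 0.319 and 0.468 CPM and 22 and 21.2 CPM (log2 fold change 5.72 ± 0.57, adjusted p = 1.52e-05). Racgap1, a subunit of centralspindlin that is needed for cytokinesis, was at 1.91 and 2.18 CPM and 95.1 and 108 CPM (log2 fold change 5.62 ± 0.47, adjusted p = 6.61e-06). Kinetochore and centromere genes rose in 19 of 20 cases, among them Cenpa, the centromeric histone H3 (3.19 and 3.9 CPM, then 38.7 and 46.5 CPM). All 13 genes of chromosome condensation and cohesion rose, including the condensin subunits Ncapd2 and Ncaph (log2 fold changes 4.17 ± 0.37 and 4.12 ± 0.38, SE) and topoisomerase Top2a. Mki67, the proliferation antigen that coats mitotic chromosomes, was at 6.06 and 8.89 CPM at 4 h and 104 and 137 CPM at 48 h (log2 fold change 4.01 ± 0.56, adjusted p = 0.000165). The second 48 h pool was the higher one for Kif11, Racgap1, Cenpa and Mki67, and no 4 h pool came near either 48 h pool.

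The list as a whole took 0.032% and 0.0395% of all reads at 4 h and 0.373% and 0.391% at 48 h. In bulk tissue a rise of this kind can come from more cells with the transcript or from more transcript per cell, and these cannot be told apart. Most mitosis genes were not at their lowest at 4 h, since the 2 h group held the lowest mean in 48 of the 78 and the 4 h group in 12. Cdk1, for example, had a mean of 1.66 CPM at 2 h and 13.1 CPM at 24 h, and 33.9 CPM at 72 h. These are group means given for their place in the course, without a test.

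Promoter sequence was examined for the words known to control genes of this phase. The cell cycle genes homology region (CHR), written TTTGAA, is the element through which the DREAM and MMB complexes repress late cell cycle genes in resting cells and activate them in G2 and mitosis, often beside CCAAT boxes bound by NF-Y. Promoters came from RefSeq on GRCm38.p6, running from 250 bases before to 50 bases after the start, and 7789 of the 12199 genes tested have exactly 1 such entry. Both strands were read. The CHR word was present in 12.2% of all 7789 promoters, in 65.1% of the 63 promoters of the mitosis list, in 12.1% of the 33 of the replication list and in 3.85% of the 26 of the acute phase list. Where it was present, a match began within 50 bases of the start in 90.2% of 41 mitosis promoters and in 24.4% of 952 promoters overall. CHR and CCAAT occurred together in 54.0% of mitosis promoters and in 5.07% of all. In promoters of genes called higher by at least 8-fold, a set chosen by the readout, the CHR share was 43.2% of 155. A match is a description of the letters, and whether these sites were bound was not tested.

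Stretches of the promoters of 4 members, from 100 bases before the start to 20 after it, are shown because they carry the CHR (TTTGAA, or TTCAAA when read on the opposite strand) and CCAAT (or ATTGG) close to the start, both in capitals. They lie at chr4:118437324-118437443, minus strand (Cdc20), chr9:70421535-70421654, minus strand (Ccnb2), chr10:69352893-69353012, minus strand (Cdk1) and chr11:99024170-99024289, minus strand (Top2a), and each reads 5′ to 3′ in the direction of the gene.
Cdc20: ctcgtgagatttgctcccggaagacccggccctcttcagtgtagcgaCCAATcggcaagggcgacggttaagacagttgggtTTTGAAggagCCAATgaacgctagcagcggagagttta
Ccnb2: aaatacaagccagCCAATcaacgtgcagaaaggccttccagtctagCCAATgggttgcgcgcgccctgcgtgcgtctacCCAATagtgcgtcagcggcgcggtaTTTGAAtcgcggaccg
Cdk1: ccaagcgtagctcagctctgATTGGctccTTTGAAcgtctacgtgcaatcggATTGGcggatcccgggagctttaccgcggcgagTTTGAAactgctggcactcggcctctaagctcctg
Top2a: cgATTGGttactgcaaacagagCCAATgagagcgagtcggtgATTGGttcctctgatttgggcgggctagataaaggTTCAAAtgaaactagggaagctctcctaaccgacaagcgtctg
In Cdc20 the CHR begins 18 bases before the start with CCAAT boxes 53 and 8 bases before it. Ccnb2 has CCAAT boxes 87, 54 and 21 bases before the start and the CHR at base 5 of the transcript. Cdk1 holds the CHR at 71 and 15 bases before the start, and Top2a holds it once, on the opposite strand, 23 bases before the start. Cyclin B2 (Ccnb2), a partner of Cdk1, was at 1.28 and 0.936 CPM at 4 h and 61.4 and 78.2 CPM at 48 h (log2 fold change 5.96 ± 0.63, adjusted p = 2.24e-05). Top2a, which untangles sister chromatids, was at 7.18 and 12.6 CPM and 83.6 and 98.7 CPM (log2 fold change 3.20 ± 0.37, adjusted p = 4.06e-05). The 2 times were apart in both.

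Genes of DNA replication also rose. Of 47 tested, 42 were higher at 48 h and none was lower, with a median log2 fold change of 2.10. The 48 h mean was the highest of the course in 36 and the 24 h mean in 6. Among origin licensing and helicase genes 14 of 16 rose. Mcm5, a subunit of the replicative helicase, was at 4.79 and 3.74 CPM at 4 h and 61.5 and 51.1 CPM at 48 h (log2 fold change 3.72 ± 0.35, adjusted p = 1.13e-05), and its mean at 24 h was already 45.7 CPM. Mcm2 and Mcm6, of the same ring, were at 3.35 and 3.12 and at 8.78 and 8.42 CPM at 4 h and at 45.9 and 31.5 and 65.4 and 48.2 CPM at 48 h, with log2 fold changes of 3.57 ± 0.34 and 2.72 ± 0.29 (SE). For all 3 the first 48 h pool was the higher one, the reverse of the order seen for Mki67 and Cenpa.

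Polymerase, clamp and ligase genes rose in 16 of 19 cases. Lig1, which seals Okazaki fragments, was at 3.83 and 4.68 CPM at 4 h and 45.5 and 35.7 CPM at 48 h (log2 fold change 3.25 ± 0.29, adjusted p = 9.41e-06). Rpa2, of the complex that covers single-stranded DNA, was at 1.28 and 0.78 CPM and 13.9 and 14.8 CPM (log2 fold change 3.79 ± 0.33, adjusted p = 8.86e-06). Pcna, the sliding clamp, went from 27.3 and 29.5 CPM to 59.1 and 47.8 CPM (log2 fold change 0.91 ± 0.20, adjusted p = 0.00352). Its call was lost without the first 48 h pool (adjusted p = 0.057). All 7 nucleotide supply genes rose, among them the ribonucleotide reductase subunits Rrm1 (12 and 14 CPM, then 79.6 and 74.7 CPM) and Rrm2 (6.22 and 9.36 CPM, then 92.4 and 70.2 CPM). Uhrf1, which carries DNA methylation across replication, was at 1.28 and 0.78 CPM and 23.1 and 19.7 CPM, and the histone chaperone Asf1b at 0.798 and 0.936 CPM and 11.2 and 10.4 CPM. Their log2 fold changes of 4.36 ± 0.44 and 3.62 ± 0.33 (SE, adjusted p = 1.75e-05 and 9.57e-06) were among those of the 5 chromatin assembly genes, all of which rose.

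E2F sites were searched with the words TTTCCCGC, TTTCGCGC, TTTGCCGC, TTTGGCGC and TTCCCGCC on both strands. At least 1 was found in 45.5% of 33 replication promoters, against 7.47% of all 7789, 15.9% of the mitosis list and 7.69% of the acute phase list. The promoters of Mcm5 (chr8:75109349-75109528, plus strand, from 160 bases before the start to 20 after) and Mcm6 (chr1:128359686-128359825, minus strand, from 120 before to 20 after) show the arrangement, with matches in capitals.
Mcm5: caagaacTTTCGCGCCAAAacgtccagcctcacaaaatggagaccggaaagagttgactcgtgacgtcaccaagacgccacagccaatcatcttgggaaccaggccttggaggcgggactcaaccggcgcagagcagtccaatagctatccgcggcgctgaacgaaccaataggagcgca
Mcm6: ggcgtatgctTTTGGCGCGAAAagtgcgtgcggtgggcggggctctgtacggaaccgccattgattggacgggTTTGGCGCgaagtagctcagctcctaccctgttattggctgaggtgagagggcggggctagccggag
Each holds 2 of the words facing each other and overlapping, which fuses them into a longer run of capitals that begins 153 bases before the start in Mcm5 and 110 bases before it in Mcm6. Mcm6 has another match 47 bases before the start.

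**Figure D3:**
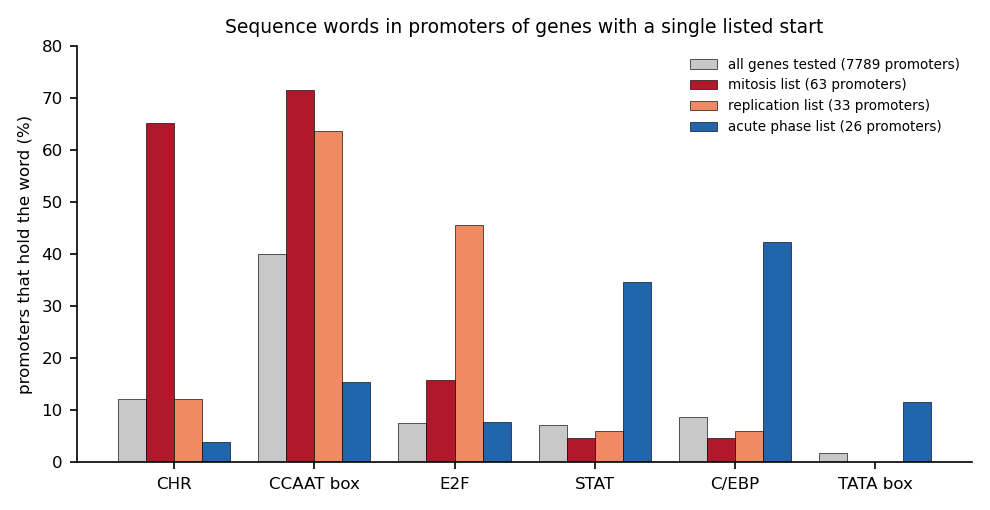
Bars give the percent of RefSeq promoters that hold each word, for all 7789 genes tested that have 1 listed start and for 3 gene lists; the axis starts at 0. The CHR stands highest in the mitosis list, E2F words in the replication list, and STAT and C/EBP words in the acute phase list.

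The cyclins are given in the order in which they act, with no test of one against another. Cyclin D1 (Ccnd1), the sensor of growth factor signals, was at 70.4 and 98.1 CPM at 4 h and 295 and 189 CPM at 48 h (log2 fold change 1.52 ± 0.26, adjusted p = 0.000606); 23.4% of its exon bases overlap a gene on the other strand. Cyclin E1 (Ccne1) was at 3.19 and 2.18 CPM and 12.3 and 8.56 CPM (log2 fold change 1.95 ± 0.42, adjusted p = 0.00302). Cyclin A2 (Ccna2) was at 2.71 and 6.39 CPM and 84.3 and 77.4 CPM (log2 fold change 4.14 ± 0.45, adjusted p = 2.53e-05) and cyclin B1 (Ccnb1) at 1.44 and 2.81 CPM and 74.3 and 98.7 CPM (log2 fold change 5.34 ± 0.51, adjusted p = 1.19e-05). The first 48 h pool was the higher for cyclins D1, E1 and A2 and the second for cyclins B1 and B2. At 4 h Ccnd1 was above its mean of 58.4 CPM at 2 h, while for Ccnb1 the sham pool (2.12 CPM) lay between the 4 h pools. Of 14 transcription factors of the cycle 9 rose, among them Foxm1, the activator of G2 genes, with 1.12 and 2.03 CPM and then 55.1 and 47.2 CPM (log2 fold change 5.01 ± 0.45, adjusted p = 9.41e-06), E2f1 and E2f2 (log2 fold changes 2.61 ± 0.27 and 3.89 ± 0.47, SE).

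Inhibitors of the cycle went both ways, with 4 of 10 higher at 48 h and 5 lower. Btg2, an antiproliferative early gene, went from 212 and 232 CPM to 44 and 46.5 CPM (log2 fold change -2.29 ± 0.24, adjusted p = 1.92e-05). Gadd45g, of a family induced by stress, fell from 139.9 and 117 CPM to 12 and 24.9 CPM (log2 fold change -2.80 ± 0.48, adjusted p = 0.00066). Gadd45a and Gadd45b also fell (log2 fold changes -2.33 ± 0.37 and -1.86 ± 0.31, SE). The inhibitor p21 (Cdkn1a) was at 481 and 379 CPM at 4 h and 202 and 239 CPM at 48 h (log2 fold change -0.97 ± 0.25, adjusted p = 0.00879), still several times its mean of 44.5 CPM in the sham pool. Its call was lost without the first 4 h pool (adjusted p = 0.0644), without the first 48 h pool (adjusted p = 0.0725) and with library totals (adjusted p = 0.197). The INK4 genes Cdkn2c and Cdkn2d rose instead, from 2.39 and 2.18 CPM to 19 and 18.8 CPM and from 0.638 and 1.87 CPM to 10.5 and 14.2 CPM (3.04 ± 0.29 and 3.27 ± 0.44 on the log2 scale, SE). Of 16 p53 targets 12.5% rose and 18.8% fell, against 19.6% and 19.5% of all genes. These are 2 and 3 genes, and 1 fell without the first 48 h pool and 9 rose and 2 fell with library totals. Plk3 fell (94.1 and 114 CPM, then 42.9 and 38.1 CPM) and Bbc3, which encodes the death protein PUMA, rose from 0.638 and 0.312 CPM to 5.37 and 4.23 CPM.

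Of 25 DNA repair and checkpoint genes 20 rose and none fell, with a median log2 fold change of 1.93. H2afx, the histone phosphorylated at DNA breaks, was at 10.7 and 8.27 CPM at 4 h and 70.7 and 53.6 CPM at 48 h (log2 fold change 2.71 ± 0.26, adjusted p = 1.15e-05). Chek1 did not pass the test (1.28 and 1.25 CPM and 2.21 and 3.44 CPM, adjusted p = 0.166), whereas Chek2 rose (log2 fold change 3.16 ± 0.42, SE).

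The building blocks of the spindle rose as well. All 10 tubulin genes tested were higher at 48 h, with a median of 1.82. Tubb5 went from 49.5 and 45.7 CPM to 327 and 306 CPM (log2 fold change 2.73 ± 0.16, adjusted p = 7.22e-07). Tubb4b rose from 115 and 96.4 CPM to 554 and 612 CPM (log2 fold change 2.46 ± 0.19, adjusted p = 4.53e-06). Reads of near-identical tubulin genes can be split between them by the counting. Stathmin (Stmn1), which takes microtubules apart, was at 15.2 and 20.6 CPM and 281 and 286 CPM (log2 fold change 3.99 ± 0.35, adjusted p = 9.4e-06). Of 14 polyadenylated histone variants and histone-like genes 8 rose, including H2afz (27.6 and 32.1 CPM, then 96.7 and 98.3 CPM). H3f3b, a replication-independent histone H3.3 gene, fell from 1031 and 854 CPM to 205 and 242 CPM (log2 fold change -2.08 ± 0.16, adjusted p = 5.46e-06), and its 4 h level stood above 166 CPM in the sham pool and 799.7 CPM at 2 h.

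Together the replication, mitosis, cyclin, repair and tubulin lists hold 195 of the genes tested, or 1.6%. They supplied 89 of the 218 genes that rose at least 8-fold, or 40.8%. Genes outside every list supplied 119 more. Among the latter, Pif1, a DNA helicase, had 0 reads in both 4 h pools and 11.7 and 13.1 CPM at 48 h, at least 25.9-fold higher against a floor of 3 reads per library (0.479 CPM). Troap, a spindle-associated protein, had 0.16 and 0 CPM and then 9.21 and 12.1 CPM, and Cdca2, a chromatin phosphatase regulator of mitosis, had 0.957 and 0.468 CPM and then 43.2 and 46.2 CPM. Gpx7, a peroxidase of the endoplasmic reticulum, is not a cell cycle gene by its known role and was at 0 and 0.312 CPM at 4 h and 10.9 and 16.5 CPM at 48 h (adjusted p = 1.82e-05).

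**Figure D4:**
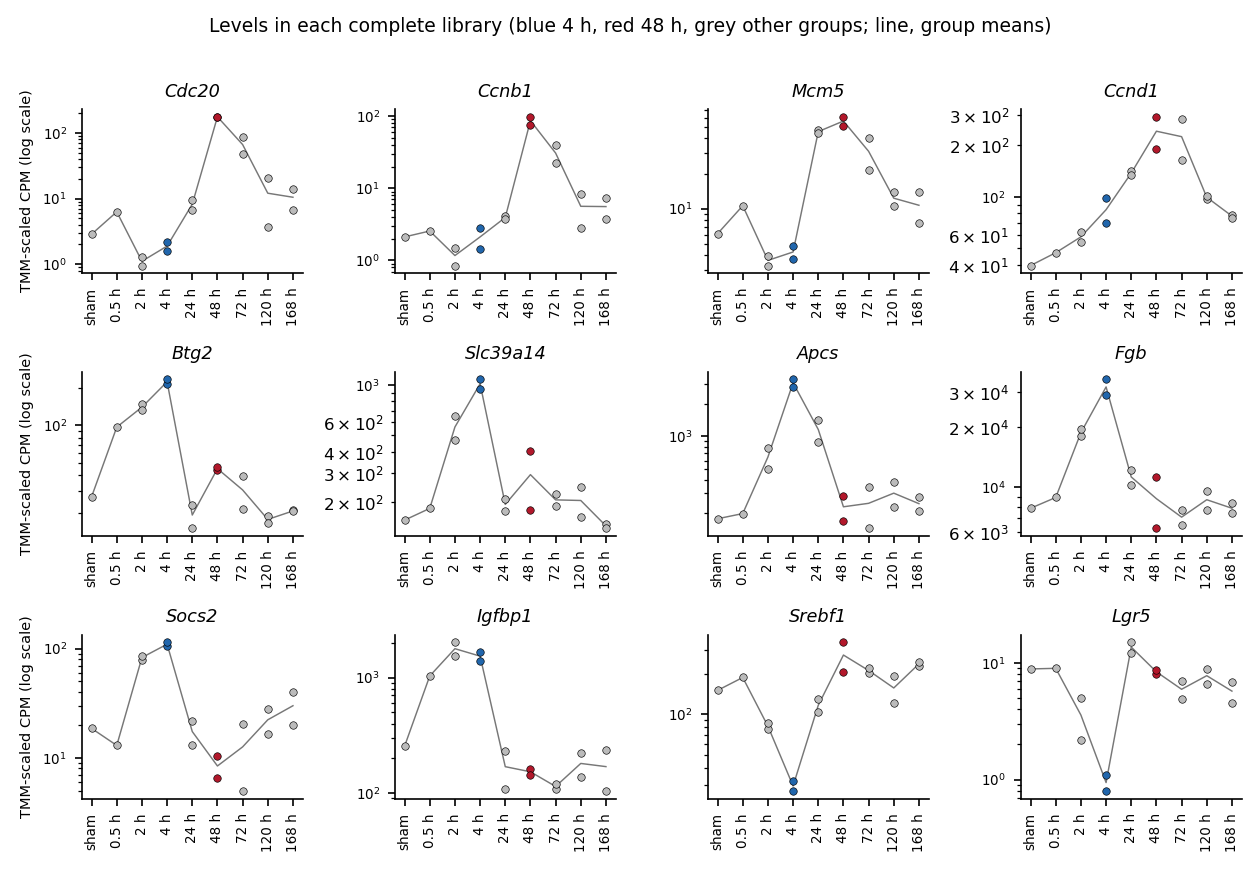
Points are TMM-scaled CPM in each complete library on log axes whose range differs by gene, blue at 4 h, red at 48 h and grey elsewhere, with lines through group means; sham and 0.5 h have 1 pool each. Cdc20, Ccnb1 and Mcm5 stand highest at 48 h, Btg2, Slc39a14, Apcs, Fgb and Socs2 highest at 4 h, and Srebf1 and Lgr5 lowest at 4 h.

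Acute phase genes fell, and their list had the lowest median of those shown. Of 39 tested genes 34 were lower at 48 h and none was higher, with a median log2 fold change of -1.85, and in 32 of the 39 the 4 h mean was the highest of the course. The list took 22.1% and 18.7% of all reads at 4 h and 6.92% and 10.4% at 48 h. The second 48 h pool kept higher acute phase levels than the first, and without the first 48 h pool 21 of the genes were called lower. With library totals 27 were lower and 1 higher.

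The 3 fibrinogen chains, which polymerise into the clot, gave the largest falls in mean CPM of all genes called. Fgb, the beta chain, was at 34836 and 28993 CPM at 4 h and 6231 and 11322 CPM at 48 h (log2 fold change -1.86 ± 0.26, adjusted p = 0.000153). Fga was at 38793 and 30239 CPM and 6747 and 12440.3 CPM (log2 fold change -1.85 ± 0.29, adjusted p = 0.000349). Fgg was at 23646 and 20940.5 CPM and 3341 and 5726 CPM (log2 fold change -2.30 ± 0.25, adjusted p = 2.98e-05). In all 3 the first 48 h pool was lowest and no pool of one time reached into the range of the other. Their means at sham were 7858, 8262 and 5243 CPM (1 pool), so that the 48 h pools lay on both sides of it in each chain. The pentraxin Apcs (serum amyloid P), an opsonin, fell from 3330.3 and 2861 CPM to 166 and 286 CPM (log2 fold change -3.78 ± 0.44, adjusted p = 4.64e-05). Crp, its relative, fell from 1192 and 988 CPM to 236 and 265 CPM (log2 fold change -2.12 ± 0.24, adjusted p = 3.06e-05).

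The serum amyloid A genes varied between the 48 h pools. Saa1, an apolipoprotein of inflammation, was at 16209 and 11684 CPM at 4 h and 1323 and 2590.0 CPM at 48 h (log2 fold change -2.83 ± 0.66, adjusted p = 0.0047). Saa2 was at 17026 and 12623 CPM and 1126 and 2747 CPM (log2 fold change -2.94 ± 0.80, adjusted p = 0.0111). Neither was called without the first 48 h pool (adjusted p = 0.0549 and 0.098), and reads of these near-identical genes can be split between them. Both were higher at 24 h (5376 and 6275 CPM) than at 48 h. The haemoglobin binder haptoglobin (Hp) fell from 17307 and 12590.1 CPM to 4006 and 5949.5 CPM (log2 fold change -1.59 ± 0.37, adjusted p = 0.00438). Hepcidin (Hamp), which blocks iron export, fell from 2405 and 2157 CPM to 432 and 567 CPM (log2 fold change -2.19 ± 0.36, adjusted p = 0.000489). The antichymotrypsin relatives Serpina3m and Serpina3n, of a family of near-identical genes, fell, with log2 fold changes of -1.92 ± 0.25 and -1.78 ± 0.42 (SE). Lipocalin 2 (Lcn2), made by hepatocytes and also by neutrophils, had 5801 and 3577 CPM and 593 and 1898 CPM and did not pass the test (log2 fold change -1.91 ± 0.78, adjusted p = 0.0667). It was called lower in the fit of only the 4 libraries (adjusted p = 0.0192), with a replicate block (adjusted p = 0.0289), by limma on log2 CPM (adjusted p = 0.0462), with no filter on low counts (adjusted p = 0.000219), without the second 48 h pool (adjusted p = 0.0438) and without any 1 of the 120 h and 168 h pools (adjusted p from 0.0326 to 0.0428).

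Mt1, a metallothionein that binds zinc, was at 4612 and 3215 CPM at 4 h and 318 and 1065 CPM at 48 h (log2 fold change -2.50 ± 0.87, adjusted p = 0.0357). That call was lost without either 4 h pool (adjusted p = 0.11 and 0.0639), without the first 48 h pool (adjusted p = 0.208) and with library totals (adjusted p = 0.0697). The zinc importer Slc39a14 fell from 1080.3 and 952 CPM to 179 and 405 CPM (log2 fold change -1.80 ± 0.31, adjusted p = 0.000716).

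Acute phase promoters were searched for the STAT word TTCNNNGAA and the C/EBP word TTGCNNAA, the sites of the factors through which interleukin-6 and interleukin-1 act on these genes. The STAT word was present in 34.6% of 26 acute phase promoters against 7.14% of all, and the C/EBP word in 42.3% against 8.63%, both strands read. In the mitosis list each share was 4.76%. Acute phase promoters also differed in composition, with a median of 52.8% G and C bases against 60.7% for all. The shares were not adjusted for this, and whether these sites were bound was not tested. Stretches of 4 promoters are shown with these words in capitals: Fgb (chr3:83049844-83050033, minus strand), Hamp (chr7:30944010-30944139, minus strand), Saa2 (chr7:46751643-46751852, plus strand) and Socs3 (chr11:117969347-117969526, minus strand), each ending 20 bases after the start.
Fgb: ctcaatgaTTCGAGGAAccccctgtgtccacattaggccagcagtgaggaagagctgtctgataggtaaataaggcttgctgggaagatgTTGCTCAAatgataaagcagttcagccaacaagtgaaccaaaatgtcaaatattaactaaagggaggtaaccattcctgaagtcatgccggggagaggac
Hamp: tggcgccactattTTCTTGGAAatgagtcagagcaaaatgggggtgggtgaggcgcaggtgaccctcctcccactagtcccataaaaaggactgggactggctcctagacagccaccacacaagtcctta
Saa2: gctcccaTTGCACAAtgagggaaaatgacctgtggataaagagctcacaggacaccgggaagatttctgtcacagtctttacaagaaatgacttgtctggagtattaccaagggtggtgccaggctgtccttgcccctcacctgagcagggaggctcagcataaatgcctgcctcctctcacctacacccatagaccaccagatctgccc
Socs3: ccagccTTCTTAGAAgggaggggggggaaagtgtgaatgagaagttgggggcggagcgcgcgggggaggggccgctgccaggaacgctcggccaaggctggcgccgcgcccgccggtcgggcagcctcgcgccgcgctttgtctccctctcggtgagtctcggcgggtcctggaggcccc
Fgb has the STAT word 162 and the C/EBP word 80 bases before the start. Hamp and Socs3 have the STAT word 97 and 154 bases before it, and Saa2 has the C/EBP word 183 bases before it.

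Components of the interleukin-6 pathway fell at several levels, with 9 of 16 lower and 1 higher at 48 h. These shares of 56.2% and 6.25% compare with 19.5% and 19.6% of all genes. Fewer members were lower without the first 48 h pool, and with library totals 5 were lower and 3 higher. Among receptors, Osmr, the oncostatin M receptor, fell from 45.2 and 34.9 CPM to 5.57 and 12.5 CPM (log2 fold change -2.15 ± 0.42, adjusted p = 0.0015). Lepr, the leptin receptor, fell from 39.4 and 50.5 CPM to 2.11 and 6.2 CPM (log2 fold change -3.44 ± 0.40, adjusted p = 4.19e-05). Lepr had been at 2.62 CPM in the sham pool, between the 48 h pools. The shared signal chain Il6st fell as well (log2 fold change -0.93 ± 0.18, SE). Of the 4 feedback inhibitors 3 fell. Socs2, which also restrains growth hormone signalling, went from 105 and 114 CPM to 6.53 and 10.3 CPM (log2 fold change -3.70 ± 0.52, adjusted p = 0.000158). Socs3, the main brake on STAT3, was at 148 and 143 CPM and 19.6 and 57.4 CPM (log2 fold change -1.91 ± 0.60, adjusted p = 0.0218). It was not called without the first 48 h pool (log2 fold change -1.37). The same held without the first or the second 4 h pool (log2 fold change -1.89 and -1.94) and with library totals (adjusted p = 0.0641). Socs3 was also not called by DESeq2 (adjusted p = 0.0524) or by limma on log2(RPKM + 1) and log2(RPKM + 0.1) (adjusted p = 0.0507 and 0.0677). The kinase Tyk2 was the member that rose (7.5 and 9.83 CPM, then 18.7 and 19.9 CPM).

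In the NF-kB and cytokine list 9 of 31 were lower at 48 h and 1 higher (29.0% and 3.23%, against 19.5% and 19.6% of all genes). With library totals 6 were lower and 2 higher. Fewer members were lower without the first 48 h pool, and 14 were lower without either 24 h pool. None of the 5 subunits passed the test. Tifa, an adaptor that feeds into NF-kB, had the largest fall of the list, from 674 and 521 CPM to 13 and 86.2 CPM (log2 fold change -3.59 ± 0.76, adjusted p = 0.00263). Vcam1, an adhesion molecule, fell from 72.3 and 76.3 CPM to 21.7 and 20.5 CPM (log2 fold change -1.82 ± 0.24, adjusted p = 0.000109). The interleukin-1 receptor Il1r1 fell from 467 and 563 CPM to 67.4 and 146 CPM (log2 fold change -2.27 ± 0.33, adjusted p = 0.000219). Of the chemokines, Ccl6 fell (152 and 112 CPM, then 31.6 and 26.3 CPM) and Ccl9 rose (118 and 143 CPM, then 409 and 384 CPM, adjusted p = 0.000145).

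Of 35 immediate early genes 18 were lower at 48 h and 1 higher (51.4% and 2.86%, against 19.5% and 19.6% of all genes). With library totals 9 were lower and 7 higher. The highest mean of these immediate early genes was at 0.5 h in 9, at 2 h in 10 and at 4 h in 10. Dusp1, a phosphatase that turns off MAP kinases, was at 52.8 and 32.4 CPM at 4 h and 12.9 and 9.84 CPM at 48 h (log2 fold change -1.91 ± 0.23, adjusted p = 5.4e-05), after 210.0 CPM in the single 0.5 h pool. The AP-1 subunit Jun was at 53.6 and 54.6 CPM and 35 and 32.4 CPM (log2 fold change -0.68 ± 0.15, adjusted p = 0.00328). Myc, which drives growth, was at 18.7 and 15.6 CPM and 8.54 and 5.02 CPM (log2 fold change -1.33 ± 0.31, adjusted p = 0.00469). Both calls were lost with library totals (adjusted p = 0.412 and 0.0605). The RNA-binding brakes Zfp36 and Zfp36l1 fell, with log2 fold changes of -1.33 ± 0.23 and -1.36 ± 0.16 (SE), and 55.9% of the exon bases of Zfp36l1 overlap a gene on the other strand. The member that rose was Dusp6, a phosphatase induced by ERK activity (26.3 and 24.5 CPM, then 65.9 and 44.3 CPM), and it was not called without the first 48 h pool (adjusted p = 0.0575).

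Ribosome production is switched on as cells prepare to grow. Of 28 ribosome biogenesis genes 11 were lower at 48 h and 2 higher (39.3% and 7.14%, against 19.5% and 19.6% of all genes). The 4 h mean was the highest of the course in 15 of the 28. Fewer were lower without the first 48 h pool, and with library totals 5 were lower and 10 higher. Gnl3 (nucleostemin) fell from 55.2 and 60.8 CPM to 14.1 and 16.5 CPM (log2 fold change -1.92 ± 0.28, adjusted p = 0.000224). Nop58, a core protein of box C/D particles, fell from 70.8 and 103 CPM to 23.5 and 28.9 CPM (log2 fold change -1.73 ± 0.33, adjusted p = 0.00136). Heatr1, a factor of small subunit assembly, fell from 94.3 and 61.3 CPM to 25 and 27 CPM (log2 fold change -1.58 ± 0.21, adjusted p = 0.000131). These 3 kept their call under every alternative. For the ribosomal proteins themselves the median log2 fold change was -0.09 over 38 genes. Of these 7 were lower (18.4%, near the 19.5% of all genes) and none was higher. The direction turned with library totals, where 21 were higher and 1 lower. Slc38a2, an amino acid transporter induced by starvation of cells for amino acids, fell from 544 and 711 CPM to 136 and 151 CPM (log2 fold change -2.13 ± 0.22, adjusted p = 1.76e-05), and the transporter Slc3a1 from 199 and 152 CPM to 38.3 and 38.2 CPM (log2 fold change -2.20 ± 0.35, adjusted p = 0.000375), 26.5% of whose exon bases overlap Prepl on the other strand.

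In polyamine and nucleotide synthesis 7 of 28 genes rose and 6 fell (25% and 21.4%), near the 19.6% and 19.5% of all genes, or 17 and 3 with library totals. Cad, the enzyme that starts pyrimidine synthesis, rose from 10.1 and 9.83 CPM to 25.8 and 22.5 CPM (log2 fold change 1.28 ± 0.17, adjusted p = 0.000103). Umps, which completes UMP, rose from 21.1 and 20.3 CPM to 45.7 and 41 CPM (log2 fold change 1.07 ± 0.14, adjusted p = 8.86e-05). Impdh2, of guanine nucleotide synthesis, rose from 35.7 and 35.6 CPM to 60.4 and 56.8 CPM (log2 fold change 0.72 ± 0.13, adjusted p = 0.000925). The salvage kinase Uck2 fell (20.3 and 16.1 CPM, then 4.51 and 6.3 CPM). Odc1, the first enzyme of polyamine synthesis, did not pass the test (110.3 and 147 CPM and 154 and 165 CPM, adjusted p = 0.217) but was called higher with library totals (adjusted p = 0.00676). Sat1, which breaks polyamines down, fell from 128 and 113 CPM to 35.5 and 37 CPM (log2 fold change -1.73 ± 0.21, adjusted p = 4.97e-05).

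In glucose metabolism several regulators fell. Of 13 gluconeogenesis genes 8 were lower at 48 h and 1 higher (61.5% and 7.69%, against 19.5% and 19.6% of all genes). With library totals 5 were lower and 3 higher. Ppargc1a, the fasting-induced coactivator, fell from 43.7 and 31.8 CPM to 6.43 and 8.07 CPM (log2 fold change -2.38 ± 0.30, adjusted p = 7e-05). Pck1, the rate-limiting enzyme, went from 2132 and 2505 CPM to 1296 and 1089.7 CPM (log2 fold change -0.96 ± 0.23, adjusted p = 0.00506), a call that was lost with library totals (adjusted p = 0.0959), and glucose-6-phosphatase (G6pc) did not pass the test (316 and 286 CPM and 323 and 234 CPM, adjusted p = 0.784). Igfbp1, an insulin-repressed hepatic protein, fell from 1670.2 and 1397 CPM to 162 and 144 CPM (log2 fold change -3.33 ± 0.40, adjusted p = 5.72e-05). Pdk4, which shuts the route from pyruvate to acetyl-CoA, fell from 128 and 177 CPM to 12.6 and 4.43 CPM (log2 fold change -4.16 ± 0.35, adjusted p = 6.61e-06). The means at 2 h were close to those at 4 h ( 1779.5 and 195 CPM).

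In glycolysis 5 of 22 rose and 3 fell (22.7% and 13.6%), against 19.6% and 19.5% of all genes. Without the first 48 h pool 3 rose, and with library totals 14 rose and 2 fell. The bifunctional enzymes that set fructose-2,6-bisphosphate moved in both directions. Pfkfb3 fell from 127 and 112 CPM to 27.4 and 27.4 CPM (log2 fold change -2.12 ± 0.25, adjusted p = 5.05e-05). Pfkfb2 fell from 45.5 and 59.4 CPM to 13.5 and 12.8 CPM (log2 fold change -1.99 ± 0.26, adjusted p = 0.000107). Pfkfb1, the liver form, was at 17.6 and 27.1 CPM and 40.5 and 36.8 CPM (adjusted p = 0.00992). Pfkfb1 was not called without the first 4 h pool or the first 48 h pool (adjusted p = 0.105 and 0.0786).

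Lipid synthesis genes split within the pathway. Srebf1, the transcription factor of fatty acid synthesis, rose from 31.8 and 26.8 CPM to 344 and 207 CPM (log2 fold change 3.23 ± 0.26, adjusted p = 6.2e-06), and its 4 h level was the lowest of the course. Mid1ip1, an activator of acetyl-CoA carboxylase, went from 6.38 and 2.34 CPM to 26.7 and 18.7 CPM (log2 fold change 2.38 ± 0.32, adjusted p = 0.000126), and 25.5% of its exon bases overlap an antisense gene. Gpam, of glycerolipid synthesis, rose from 34.8 and 36 CPM to 145 and 72 CPM (log2 fold change 1.62 ± 0.26, adjusted p = 0.000479). Fads2, a desaturase, rose from 178 and 177 CPM to 477 and 389.6 CPM (log2 fold change 1.29 ± 0.25, adjusted p = 0.00136). Other genes of fatty acid synthesis fell: Scd1, the main desaturase of saturated fatty acids, from 13119 and 10077 CPM to 3744 and 2362 CPM (log2 fold change -1.93 ± 0.35, adjusted p = 0.000971). Elovl5 fell from 761 and 674 CPM to 270.3 and 249.6 CPM (log2 fold change -1.46 ± 0.23, adjusted p = 0.000384). Thrsp fell from 467 and 428 CPM to 178 and 65.5 CPM (log2 fold change -1.88 ± 0.37, adjusted p = 0.00168). Over the 21 genes 8 rose and 6 fell (38.1% and 28.6%, against 19.6% and 19.5% of all genes), and fewer rose without the first 48 h pool. Fatty acid synthase (Fasn) was at 297 and 155 CPM at 4 h and 918 and 246 CPM at 48 h, the first 48 h pool far above the second. Fasn overlapped between the times, although it was called (adjusted p = 0.0356). The call was lost in the fit of only the 4 libraries (adjusted p = 0.0838), by limma on log2 CPM (adjusted p = 0.067) and without either 72 h pool (adjusted p = 0.0506 and 0.0503). Also, the call was lost without the first 48 h pool (log2 fold change 0.09) and without the second 4 h pool (log2 fold change 0.97).

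Cholesterol synthesis genes were lower at 48 h in 9 of 24 cases (37.5%, against 19.5% of all genes) and higher in none. With library totals, however, 7 were lower and 10 higher. Without the first 4 h pool 7 were lower and 5 higher, and the median log2 fold change of the list turned from -0.19 to 0.24. With a replicate block 9 were lower and 2 higher. The falls that held under every alternative included Idi1, an isomerase of the isoprenoid pathway (259.6 and 206 CPM, then 32.9 and 32.5 CPM, log2 fold change -2.83 ± 0.39, adjusted p = 0.000139), and Insig2, which holds the sterol sensor in the endoplasmic reticulum (20.3 and 19.2 CPM, then 3.17 and 2.95 CPM, log2 fold change -2.68 ± 0.31, adjusted p = 4.53e-05). Sqle and Cyp51, of the steps around squalene and lanosterol, fell, with log2 fold changes of -1.78 ± 0.31 and -1.74 ± 0.28 (SE). The coat protein of lipid droplets Plin2 fell from 1829 and 1414 CPM to 577 and 490.4 CPM (log2 fold change -1.60 ± 0.19, adjusted p = 5.5e-05). Plin5 fell from 73.1 and 74.6 CPM to 24.7 and 28.2 CPM (log2 fold change -1.48 ± 0.14, adjusted p = 1.06e-05). Among 26 members of the PPARalpha and fatty acid oxidation list 5 rose and 6 fell (19.2% and 23.1%), near the 19.6% and 19.5% of all genes, or 12 and 6 with library totals, and 2 rose without the first 4 h pool or without either 48 h pool. Cpt1a, which admits fatty acids to mitochondria, was at 311 and 380.3 CPM and 271 and 347 CPM (adjusted p = 0.504).

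**Figure D5:**
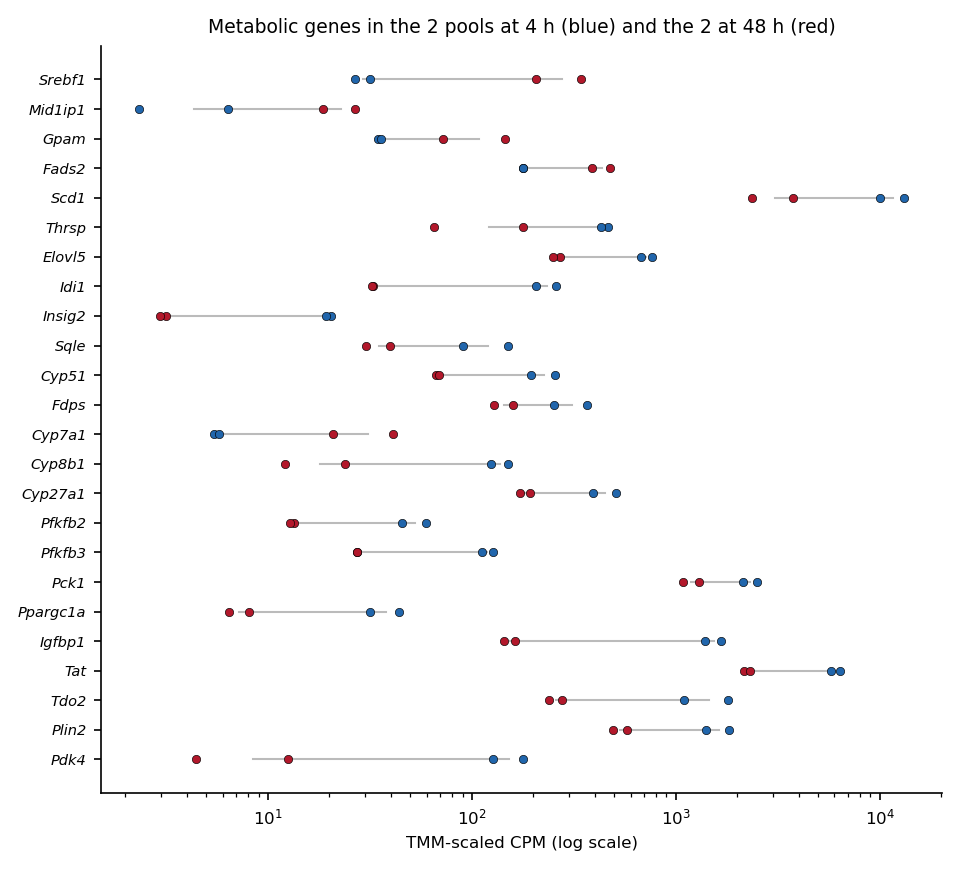
Points give TMM-scaled CPM (log axis, not divided by gene length) for 24 metabolic genes in the 2 pools at 4 h (blue) and the 2 at 48 h (red), joined between group means by a grey line. Srebf1, Mid1ip1, Gpam, Fads2 and Cyp7a1 lie higher at 48 h, and the other genes lie lower.

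Bile acid synthesis was followed through its enzymes. Cyp7a1, the rate-limiting one, was at 5.42 and 5.77 CPM at 4 h and 20.8 and 40.9 CPM at 48 h (log2 fold change 2.46 ± 0.80, adjusted p = 0.0264), against 145 CPM in the sham pool. Cyp8b1, which sets the share of cholic acid, fell instead, from 124 and 149.7 CPM to 12.1 and 24 CPM (log2 fold change -2.92 ± 0.82, adjusted p = 0.0127), with 378 CPM at sham. The Cyp7a1 call was lost without either 4 h pool (adjusted p = 0.108 and 0.113) or the second 48 h pool (adjusted p = 0.147), and that of Cyp8b1 without the first 48 h pool (adjusted p = 0.103). Cyp27a1, of the alternative route, fell from 509 and 394 CPM to 193 and 172 CPM (log2 fold change -1.31 ± 0.22, adjusted p = 0.000682). The FGF15 coreceptor Klb rose from 5.58 and 4.06 CPM to 18.4 and 14.9 CPM (log2 fold change 1.79 ± 0.26, adjusted p = 0.000238).

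Among 41 cytochromes P450 and conjugating enzymes 8 rose and 15 fell (19.5% and 36.6%, against 19.6% and 19.5% of all genes). With library totals 14 rose and 6 fell. The count that rose was 5 without the first 4 h pool and 4 without the first 48 h pool, and the count that fell was 8 without the second 4 h pool. Cyp2b10, the standard target of the receptor CAR, fell from 212 and 312 CPM to 14.3 and 18.7 CPM (log2 fold change -3.99 ± 0.39, adjusted p = 1.38e-05). Nr1i3, which encodes CAR, rose from 14.2 and 15 CPM to 34.6 and 26.8 CPM, though 74.9% of its exon bases overlap Tomm40l. The glutathione transferases Gstm3 and Gsta4 rose from 54.9 and 84.4 CPM to 735 and 372 CPM and from 26.5 and 47.7 CPM to 150.5 and 112 CPM (2.99 ± 0.68 and 1.82 ± 0.28 on the log2 scale, SE). Nnmt, a methyltransferase for nicotinamide, fell from 728 and 747 CPM to 147 and 241 CPM (log2 fold change -1.93 ± 0.24, adjusted p = 6.12e-05). The perivenous enzymes Cyp2e1 and Cyp1a2 did not pass the test (adjusted p = 0.293 and 0.489), and Cyp1a2 was called higher with library totals (adjusted p = 0.0356).

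Plasma proteins are the main products of the differentiated hepatocyte. Of 57 plasma protein genes 35 fell and 3 rose (61.4% and 5.26%, against 19.5% and 19.6% of all genes), with a median of -0.61. With library totals, however, 12 fell and 10 rose. The fibrinolysis inhibitor Cpb2 fell from 1570.0 and 1423 CPM to 409 and 498 CPM (log2 fold change -1.72 ± 0.19, adjusted p = 2.51e-05). Coagulation factor IX (F9) fell from 304 and 361 CPM to 116 and 123 CPM (log2 fold change -1.47 ± 0.22, adjusted p = 0.000238). Apoa5, which promotes lipolysis of plasma triglyceride, fell from 1054 and 1189 CPM to 357 and 329 CPM (log2 fold change -1.71 ± 0.19, adjusted p = 3.31e-05), and 20.8% of its exon bases overlap an antisense gene. Albumin itself did not pass the test (102664 and 111837 CPM and 84801 and 89432 CPM, adjusted p = 0.279). The fetal carrier alpha-fetoprotein (Afp) rose, at a low level, from 0.638 and 0.312 CPM to 8.35 and 5.31 CPM (log2 fold change 3.81 ± 0.54, adjusted p = 0.000172).

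Of 25 urea cycle and amino acid breakdown genes 15 were lower and 2 higher (60.0% and 8.0%, against 19.5% and 19.6% of all genes). With library totals 9 were lower and 9 higher. Tat, of tyrosine breakdown, fell from 6378 and 5748 CPM to 2156 and 2303 CPM (log2 fold change -1.44 ± 0.21, adjusted p = 0.000186). Tdo2, of tryptophan breakdown, fell from 1102 and 1794 CPM to 239 and 277 CPM (log2 fold change -2.49 ± 0.29, adjusted p = 4.07e-05). Aass, of lysine breakdown, fell from 1302 and 1194 CPM to 295 and 378 CPM (log2 fold change -1.89 ± 0.18, adjusted p = 1.21e-05). Serine dehydratase (Sds) fell from 508 and 504 CPM to 85.1 and 120.5 CPM (log2 fold change -2.30 ± 0.26, adjusted p = 3.29e-05), against 66.8 CPM in the sham pool, and 21.3% of its exon bases overlap Plbd2 on the other strand. Cps1, the entry enzyme of the urea cycle, did not pass the test (2975 and 3169 CPM and 4235 and 4054 CPM, adjusted p = 0.0829). Cps1 was called higher by DESeq2 (adjusted p = 0.0386), in the fit of only the 4 libraries (adjusted p = 0.0434) and with library totals (adjusted p = 0.000744). Its activator synthase Nags rose (41.6 and 33.5 CPM, then 84 and 87.7 CPM).

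Of 14 growth hormone dependent and male-biased genes 8 were lower at 48 h (57.1%, against 19.5% of all genes) and none was higher. That count was 5 without the second 4 h pool, 5 without the second 48 h pool and 4 with library totals. The major urinary proteins Mup3 and Mup20, of a family of near-identical genes, fell from 6689.9 and 7342 CPM to 2305 and 1906 CPM and from 4858 and 8052 CPM to 2389 and 1152 CPM (-1.74 ± 0.32 and -1.87 ± 0.43 on the log2 scale, SE). Hsd3b5 was already at 15.6 and 15.3 CPM at 4 h, against 258 CPM in the sham pool, and was at 27.3 and 24.9 CPM at 48 h (adjusted p = 0.319). In the fit of only the 4 libraries Hsd3b5 was called higher (adjusted p = 0.00718, or 0.0156 with a replicate block there). In the IGF axis Igf1 was at 779.6 and 937 CPM and 455 and 398 CPM (log2 fold change -1.01 ± 0.21, adjusted p = 0.00212), a call lost with library totals (adjusted p = 0.0757). The insulin receptor substrates moved in opposite directions: Irs1 rose from 2.87 and 8.42 CPM to 20.6 and 15.5 CPM (log2 fold change 1.67 ± 0.33, adjusted p = 0.00169). Irs2 fell from 27.6 and 36.7 CPM to 12.1 and 7.48 CPM (log2 fold change -1.71 ± 0.34, adjusted p = 0.0016). The exons of Irs1 overlap Gm9747 over 30.9% of their bases.

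Hepatocyte identity is held by a set of transcription factors. Hnf4a was at 1079 and 1012 CPM at 4 h and 799 and 910.5 CPM at 48 h (adjusted p = 0.147). Cebpa was at 109 and 128 CPM and 117 and 121 CPM (adjusted p = 0.997), so that neither passed the test, though Cebpa was called higher with library totals (adjusted p = 0.0214). The inducible members Cebpb and Cebpd, which act in the acute phase, fell from 134 and 114 CPM to 61.4 and 61.8 CPM and from 40.4 and 31.7 CPM to 7.39 and 11.9 CPM (-1.01 ± 0.18 and -1.90 ± 0.38 on the log2 scale, SE); 20.7% of the exon bases of Cebpb overlap a gene on the other strand. Foxa1 rose from 3.83 and 6.39 CPM to 20.3 and 13.8 CPM (1.73 ± 0.31, SE), and the sham pool was at 19.8 CPM. Over 31 hepatocyte factors and nuclear receptors 11 rose and 5 fell (35.5% and 16.1%, against 19.6% and 19.5% of all genes). With library totals 16 rose and 2 fell. Without the first 48 h pool 7 rose and 3 fell, and 3 fell without the second 4 h or the second 48 h pool.

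Several genes that rose had their lowest mean at 4 h. Lgr5 and Rnf43, targets and regulators of Wnt signalling that mark hepatocytes near the central vein, were at 0.798 and 1.09 CPM and 1.6 and 1.25 CPM at 4 h and at 8.06 and 8.66 CPM and 9.12 and 7.57 CPM at 48 h. The log2 fold changes were 3.12 ± 0.45 and 2.54 ± 0.29 (SE, adjusted p = 0.00018 and 4.14e-05), and the sham levels were 8.85 and 9.1 CPM. The 48 h pools were thus close to sham and the 4 h pools well below it. Glul, another gene of the same zone, fell from 1777 and 1415 CPM to 986 and 1028 CPM, a call lost without the first 4 h pool, without the first 48 h pool and with library totals (adjusted p = 0.103, 0.0562 and 0.504). Over the 21 genes of Wnt targets and zonation 9 rose and 4 fell (42.9% and 19.0%, against 19.6% and 19.5% of all genes). Fewer fell without the first 4 h pool or without the first 48 h pool, and with library totals 14 rose and 2 fell. The receptor Erbb3, which pairs with the epidermal growth factor receptor, rose from 14.4 and 16.4 CPM to 33 and 40.2 CPM (log2 fold change 1.25 ± 0.22, adjusted p = 0.00077) and stood at 57.4 CPM at sham.

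Clock genes also differed, 11 of 20 being higher at 48 h and 2 lower. The share higher was 55%, against 19.6% of all genes, and the share lower was below the 19.5% of all genes. With library totals 14 were higher and 1 lower. The median log2 fold change of the list was 0.90, against -0.01 for all genes tested. With library totals these medians were 1.43 and 0.52. Usp2, an output gene, rose from 5.9 and 6.55 CPM to 39.5 and 37.6 CPM (log2 fold change 2.63 ± 0.25, adjusted p = 1.08e-05). Tef rose from 7.82 and 6.24 CPM to 23.2 and 25 CPM (log2 fold change 1.78 ± 0.18, adjusted p = 1.76e-05). Per2 rose from 2.07 and 1.4 CPM to 12.3 and 7.08 CPM (log2 fold change 2.47 ± 0.52, adjusted p = 0.00263). Wee1, which is both a clock output and an inhibitor of Cdk1, rose from 2.55 and 1.87 CPM to 29 and 21.4 CPM (log2 fold change 3.50 ± 0.38, adjusted p = 2.62e-05). Nfil3 fell (117 and 115 CPM, then 46.3 and 55.4 CPM), and the core activator Arntl did not pass the test (31.4 and 36.5 CPM and 36.5 and 35.1 CPM, adjusted p = 0.704) but was called higher with library totals (adjusted p = 0.00315). Samples taken 4 h and 48 h after an operation come from different hours of the day if the operations were done at one hour, and time of day and time since the operation cannot be told apart here.

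Activins and TGF-beta restrain hepatocyte growth. In the activin and TGF-beta group 3 of 19 rose and 7 fell (15.8% and 36.8%, against 19.6% and 19.5% of all genes). Inhbb, the subunit of activin B, fell from 59.4 and 40.7 CPM to 6.43 and 15.4 CPM (log2 fold change -2.19 ± 0.42, adjusted p = 0.00139). Follistatin (Fst), which binds activin, fell from 21.5 and 37.7 CPM to 8.73 and 6.49 CPM (log2 fold change -1.96 ± 0.38, adjusted p = 0.00146). Inhbc rose from 42.6 and 42.9 CPM to 72 and 80.6 CPM (log2 fold change 0.84 ± 0.18, adjusted p = 0.00289). Of the receptors for hepatocyte mitogens, Met did not pass the test (33.8 and 43.5 CPM and 40.2 and 40 CPM, adjusted p = 0.844) but was called higher with library totals (adjusted p = 0.0321). Egfr was at 1211 and 1094 CPM and 607 and 668 CPM (log2 fold change -0.85 ± 0.25, adjusted p = 0.0159). The Egfr call was lost without the first 4 h pool (adjusted p = 0.0713), without the first 48 h pool (adjusted p = 0.0805) and with library totals (adjusted p = 0.22). Hgfac, the protease that activates hepatocyte growth factor, fell from 174 and 139.7 CPM to 66.2 and 69.7 CPM (log2 fold change -1.21 ± 0.18, adjusted p = 0.000294). Tead1, a DNA-binding partner of YAP, fell from 126 and 115 CPM to 15.1 and 36.2 CPM (log2 fold change -2.23 ± 0.29, adjusted p = 0.000103), from a 4 h level far above the 9.6 CPM of the sham pool.

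Markers of other liver cells were read in the same way, because they bear on what the pools contained. Kupffer cell and macrophage genes were lower at 48 h in 11 of 21 cases (52.4%, against 19.5% of all genes) and higher in none. The summed level of the Kupffer cell and macrophage genes was 1482 and 1217 CPM at 4 h and 889 and 1002 CPM at 48 h. The count was 6 without the first 4 h pool and 2 with library totals, with 1 higher. Vsig4, a complement receptor of Kupffer cells, was at 56.3 and 60 CPM and 32.3 and 25.5 CPM (log2 fold change -1.01 ± 0.17, adjusted p = 0.000548), a call lost with library totals (adjusted p = 0.053), and the scavenger receptor Msr1 at 25.4 and 30.4 CPM and 7.29 and 11.5 CPM (log2 fold change -1.57 ± 0.27, adjusted p = 0.000768). The neutrophil markers without Lcn2 summed to 192 and 88.6 CPM at 4 h and to 22.3 and 100.9 CPM at 48 h, so that the second 48 h pool, the one with the higher acute phase levels, lay between the 4 h pools. S100a8 followed the same order, with 24.9 and 8.89 CPM at 4 h and 1.54 and 12 CPM at 48 h. Of the 17 neutrophil genes tested, Lcn2 included, 4 were lower at 48 h (23.5%, near the 19.5% of all genes) and none was higher. Fewer were lower without the first 4 h or the first 48 h pool, and more without the second 48 h pool. Erythroid markers summed to 1061 and 997 CPM at 4 h and to 507 and 509.9 CPM at 48 h, both 48 h pools lying below both 4 h pools. Of the 10 tested 4 were lower and none higher, with a median log2 fold change of -0.65, and 1 or 2 were lower when any 1 of the 4 pools was left out and 2 with library totals. The part of leukocytes in the fall of the acute phase and cytokine genes was not tested.

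The genes of class II antigen presentation, H2-Aa and H2-Eb1, fell from 36.1 and 27.6 CPM to 7.48 and 8.85 CPM and from 25 and 20.1 CPM to 6.43 and 6.3 CPM (-1.96 ± 0.45 and -1.82 ± 0.41 on the log2 scale, SE). Lymphocyte and dendritic cell markers summed to 244 and 175.0 CPM at 4 h and 66.6 and 58.0 CPM at 48 h. Of 16 tested 5 were lower (31.2%, against 19.5% of all genes), and fewer without the first 4 h or the second 48 h pool. Of the endothelial markers 1 of 21 was higher and 4 were lower (4.76% and 19.0%, against 19.6% and 19.5% of all genes). The median log2 fold change of the list was 0.02, and with library totals 8 were higher and 2 lower. The markers summed to 757 and 699 CPM at 4 h and 644 and 594 CPM at 48 h. Lyve1, a hyaluronan receptor of sinusoids, fell from 115 and 112 CPM to 13.6 and 25.2 CPM (log2 fold change -2.55 ± 0.26, adjusted p = 1.72e-05), and its 4 h level exceeded that of every other group mean. Nos3, the endothelial nitric oxide synthase, fell from 19.5 and 14.5 CPM to 4.99 and 5.51 CPM (log2 fold change -1.69 ± 0.27, adjusted p = 0.000384), and 25.2% of its exon bases overlap an antisense gene. In the matrix and stellate list 6 of 23 rose and 3 fell (26.1% and 13%, against 19.6% and 19.5% of all genes), or 14 and 2 with library totals. Collagen I (Col1a1) rose from 6.38 and 8.42 CPM to 34.7 and 25.8 CPM (log2 fold change 2.03 ± 0.46, adjusted p = 0.00397). Decorin (Dcn) fell from 202 and 187 CPM to 69.7 and 85 CPM (log2 fold change -1.33 ± 0.15, adjusted p = 2.97e-05). The count of rising matrix genes was 2 without the first 48 h pool, 2 without the second 4 h pool and 3 without the first.

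Bile duct genes moved in both directions. Of the 15 tested on the bile duct and progenitor list, 5 were higher at 48 h and 3 lower, also with library totals. The share higher was 33.3%, against 19.6% of all genes, and the share lower was near the 19.5% of all genes. The list summed to 1117.8 and 599.9 CPM at 4 h and 1703.3 and 1364.5 CPM at 48 h. Only some of the genes called are named here. Krt8, a keratin of hepatocytes and ducts, rose from 386 and 188 CPM to 782 and 641 CPM (log2 fold change 1.31 ± 0.30, adjusted p = 0.00401). Sox9, a factor of duct cells, fell from 59.4 and 33.8 CPM to 12.6 and 17.5 CPM (log2 fold change -1.63 ± 0.33, adjusted p = 0.00194). Spp1 (osteopontin) fell from 91.4 and 58.8 CPM to 21.4 and 18.5 CPM (log2 fold change -1.91 ± 0.45, adjusted p = 0.00507). Krt19, the defining duct keratin, was low (2.07 and 0.624 CPM and 1.82 and 1.38 CPM) and did not pass the test. For Sox9 the 4 h pools were also above the sham pool (10.8 CPM).

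The genes with the largest falls included several that belong to none of these lists: 60 of the 72 genes that fell at least 8-fold were in no list. Gpcpd1, a phosphodiesterase of choline metabolism, went from 397 and 437 CPM to 14.1 and 15.5 CPM (log2 fold change -4.81 ± 0.28, adjusted p = 7.22e-07). B3galt1, a galactosyltransferase, fell from 554 and 908 CPM to 17 and 45.8 CPM (log2 fold change -4.54 ± 0.52, adjusted p = 4e-05). Tiparp, a mono-ADP-ribosyltransferase and target of the aryl hydrocarbon receptor, fell from 203 and 156 CPM to 5.47 and 12.8 CPM (log2 fold change -4.30 ± 0.33, adjusted p = 5.27e-06). Arrdc4, an arrestin-domain protein of glucose uptake, fell from 113 and 84.1 CPM to 4.8 and 5.8 CPM (log2 fold change -4.21 ± 0.29, adjusted p = 2.89e-06). Cd28, known as a costimulatory receptor of T cells, was at 20.4 and 19.5 CPM at 4 h and 0.576 and 1.28 CPM at 48 h (log2 fold change -4.41 ± 0.55, adjusted p = 6.69e-05), and its mean did not exceed 1 CPM in any other group of the course. Akr1b7, an aldose reductase relative, fell from 188 and 25.9 CPM, a wide spread between the 4 h pools, to 1.54 and 3.93 CPM (log2 fold change -5.28 ± 1.15, adjusted p = 0.00306). A pseudogene on the other strand overlaps 27.2% of the exon bases of Akr1b7. Measured as a difference in CPM, the largest rises among called genes were those of the alcohol dehydrogenase Adh1 (2011 and 1959 CPM, then 4326 and 3893 CPM) and the glutathione transferase Gstm1 (947 and 978 CPM, then 2344 and 1775 CPM). The Gstm1 call was lost without either 4 h pool (adjusted p = 0.0758 and 0.0761) and without the first 48 h pool (adjusted p = 0.129), and its reads can be split with near-identical Gstm genes.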

How the data were processed

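Polyadenylated RNA of pooled mouse livers was sequenced, per the labels' protocols. The authors deposited 1 table per library with uniquely mapped read counts per gene and RPKM values, per the file headers. The submitters' processing notes name the build mm10. The sources used here give no aligner, counter or strand setting. Counts were used as deposited. An unlisted gene was given 0 reads in the 16 tables whose counts sum to the header total. The tables of sham replicate 2 and 0.5 h replicate 1 leave 1.14% and 4.73% of their reads unlisted and were left out of the fit. Reads of entries with no gene ID made up at most 0.0324% of a library and were kept in the counts. Of 17180 genes listed, 16985 matched a RefSeq gene ID.

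Genes with at least 10 reads in at least 2 libraries and 15 in all were tested with edgeR 4.0.16 (R 4.3.3): TMM factors, 1 coefficient per group, quasi-likelihood F test, 48 h minus 4 h, Benjamini-Hochberg adjustment over all genes tested, threshold 0.05. All 9 groups shared 1 estimate of the spread, with 7 residual degrees of freedom. The procedure was tested on simulated data. Libraries held 7.78 to 9.16 mega reads, and a level of 0.479 CPM corresponds to 3 reads at 4 h. Fold changes carry standard errors from the fit. Alternatives were DESeq2 1.42.0, other scaling factors, limma 3.58.1 on log2 CPM and on the deposited RPKM values, other filters, other sets of libraries, a replicate block and leaving out each library.

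Named genes were the 14 largest rises and 14 largest falls among called genes whose higher group mean reached 10 CPM and whose pools did not overlap, the 6 largest changes each way in mean CPM, preset anchors of each list, and up to 6 further members per list and direction with the smallest p; only some of these are printed, and some that the rule takes are not reported here. The times compared, the gene lists and the motifs were chosen with earlier results of these data known. Exon overlaps come from GENCODE annotation on GRCm38.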

Additional observations from a re-analysis of the deposited data

How the results depend on the processing

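The number of genes called depended on the scaling. Against 2390 higher and 2378 lower, library totals gave 5292 and 806, log2(RPKM + 1) gave 5283 and 782, and log2(RPKM + 0.1) gave 5350 and 782. Of changes of at least 2-fold, 1287 higher and 1271 lower, library totals gave 2903 and 487, log2(RPKM + 0.1) gave 2856 and 472, and log2(RPKM + 1) left 296 lower. With all 18 libraries, where 4906 genes could be tested, 2534 were called (1238 higher, 1296 lower), of them 755 at least 2-fold (327 and 428). Leaving out 1 library gave 2851 to 5075 calls, 1453 to 2410 higher and 1398 to 2750 lower, and 1905 to 2650 of at least 2-fold (940 to 1290 higher, 936 to 1430 lower). The lowest of the total, higher and lower counts came without 48 h replicate 1. No gene called here was called in the opposite direction under any alternative that was run.

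Of 178 named genes that were called, 158 kept the call under every alternative with a value, and none turned direction. Many named genes were picked by large changes or small p in these same data, so this share does not carry over to all called genes. With DESeq2, 177 of the 178 kept the call. Over all genes called, DESeq2 kept 2093 of the 2390 higher and 2053 of the 2378 lower. Replicate numbers did not pair the samples: over 21 pairs of groups the correlation of same-numbered deviations ran from -0.359 to 0.287 (4 h with 48 h -0.056). A replicate block gave 2373 higher and 2418 lower, and in the fit of only the 4 libraries 2071 and 2232. Depth limits genes near 3 reads, or 0.479 CPM at 4 h.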

Other observations

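Several further gene groups had counts that depend on the scaling. Of 27 oxidative phosphorylation genes 2 rose and 4 fell, and of 30 proteasome genes none rose and 8 fell. Among 25 splicing factors 1 rose and 8 fell. The shares that fell were 14.8%, 26.7% and 32.0%, against 19.5% of all genes. The shares that rose were 7.41%, 0.0% and 4.0%, against 19.6%. Medians were -0.07, -0.15 and -0.16. With library totals 19, 17 and 9 rose and 1, 0 and 3 fell. Without the second 4 h pool the falling counts were 2, 2 and 4, and without the first 48 h pool 2 oxidative phosphorylation and 2 proteasome genes fell. Splicing factors fell in 5 cases without the second 48 h pool. Of 23 interferon-inducible genes 7 fell and 1 rose (30.4% and 4.35%, against 19.5% and 19.6% of all genes). Far fewer fell without any 1 of the 4 pools, and with library totals none fell and 3 rose. Among 15 heat shock genes 4 rose and 1 fell (26.7% and 6.67%, against 19.6% and 19.5% of all genes), or 7 rose with library totals. Hspa1b, the inducible HSP70, went from 0.957 and 1.72 CPM to 3.93 and 6.79 CPM (log2 fold change 1.99 ± 0.38, adjusted p = 0.00138). Hsp90ab1, the constitutive HSP90, went from 786 and 929 CPM to 1467 and 1408 CPM (log2 fold change 0.75 ± 0.16, adjusted p = 0.003). Hmox1, which degrades haem, went from 317 and 153 CPM to 50.5 and 66.7 CPM (log2 fold change -2.01 ± 0.43, adjusted p = 0.00284), and Alas1, the first enzyme of haem synthesis in liver, from 742 and 669 CPM to 287 and 308 CPM (log2 fold change -1.25 ± 0.27, adjusted p = 0.00278). In each of these 4 genes the pools of the 2 times did not overlap.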
